A study of Homo sapiens and Mus musculus with 12 samples.

Results

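This report describes 44 genes of the lysosome, the acidic degradative compartment of the cell, and of the vacuolar-type proton pump (V-ATPase) that acidifies it. They were taken by symbol from a list drawn up by function, with earlier results of these data known. The mouse gene of the same symbol was used in mouse cells. By role they are 11 glycosidases and sulfatases, 8 proteases, 6 lipid-handling proteins, 7 membrane proteins, 8 pump subunits and a set of 4 made of TFEB, TFE3, MITF and GPNMB. All 44 were among the 63677 gene identifiers of the human tables and the 47729 of the mouse tables. TMEM55B was found under its current symbol PIP4P1 in both species, and mouse ATP6V0E1 under Atp6v0e.

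RNA-seq was performed in MDA-MB-231 cells, a human line from triple-negative breast cancer, and in 4T1 cells, a mouse line from a mammary carcinoma, called the human and the mouse line where the contrast matters. Both were labelled as wild-type (WT) epithelial cells and carried no engineered allele. Cells received 1 μmol/L ponatinib, a multi-target tyrosine kinase inhibitor, or its solvent DMSO for 24 h, with 3 libraries per group and 12 in all. The study used the comparison to survey the effects of the drug on the transcriptome of both lines, and nothing in the labels states whether the 3 libraries of a group came from separate cultures, so p-values measure the spread between these libraries.

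Lysosomal hydrolases are made in the endoplasmic reticulum, tagged with mannose 6-phosphate and carried to the lysosome, where a low pH set by the V-ATPase lets them cut glycans, proteins and lipids. Many of their genes carry a CLEAR element, an extended E-box bound by TFEB, TFE3 and MITF. These factors are held in the cytoplasm when mTORC1 is active on the lysosome and move to the nucleus when it is not.

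Total counts per library ran from 15012884 to 17301760 for the human line and from 17800675 to 18951493 for the mouse line. Levels are given as CPM, the counts of a gene over the scaled size of its library. Of the markers fixed for epithelial cells, KRT8 was high in both lines, whereas CDH1 (E-cadherin) had 1 count in all 6 MDA-MB-231 libraries together and Cdh1 lay between 787 and 969 CPM in 4T1. The summed level of 7 macrophage markers was 2.58 to 3.51 CPM on DMSO and 3.02 to 5.34 CPM on ponatinib in MDA-MB-231, with PTPRC, AIF1 and C1QA at 0. In 4T1 it was 223 to 249 CPM on DMSO and 137 to 155 CPM on ponatinib, nearly all of it from Cd14, with C1qa and Itgam at 0. In the human line 4 other marker lists, beside the melanocyte markers given with GPNMB, moved without overlap of the groups. The summed level of 6 epithelial markers was 929 to 1154 CPM on DMSO and 1574 to 1989 CPM on ponatinib, most of it from KRT8, and that of 3 mesenchymal markers was 1201 to 1417 and 721 to 939 CPM, most of it from VIM. That of 6 fibroblast markers was 26.4 to 31.5 and 81.0 to 87.7 CPM, nearly all of it from COL1A1 and PDGFRB, with LUM, DCN, PDGFRA and COL1A2 near 0. That of ESR1, PGR and ERBB2 was 92.8 to 107 and 167 to 177 CPM, nearly all of it from ERBB2. In the mouse line the epithelial and mesenchymal sums overlapped between the groups, as did that of the receptors, but single markers moved. Krt18 fell from 3445, 3026 and 3257 to 2033, 2236 and 2439 CPM. Krt8 and Esr1 lay wholly higher on ponatinib and Zeb1 wholly lower, while the other detected markers of these lists overlapped. Epcam was low, at 2.09 to 2.90 CPM, and Krt5 near 0. The fibroblast sum was 6.66 to 7.54 and 9.50 to 10.2 CPM, with Col1a2, Dcn and Lum at 0. Of its 3 tested genes, 1 (Col1a1) was called higher and 2 (Pdgfra and Pdgfrb) lower, with no Pdgfrb count on ponatinib. The share of counts from mitochondrial genes was 5.17% to 5.30% on DMSO and 6.38% to 6.56% on ponatinib in the human line, and in the mouse line it was 0.732% to 1.15% and 0.936% to 1.32%. Their part in the results was not tested. Exons of another annotated gene overlapped those of 24 members in human and 20 in mouse, on the opposite strand for 21 and 19 of them. The library kit named in the labels does not mark strand, so reads from such opposite-strand pairs, among them CTSA, SGSH, LIPA, NPC2 and TFEB in human and Neu1, Ctsa and Sgsh in mouse, cannot be told apart.

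The promoter sequences are given for members with different responses, to show which hold the short E-box alone and which the longer CLEAR core. Each is written 5′ to 3′ on the gene's own strand, in lower case, with capitals marking the E-box core CACGTG or, where the match extends that far, the 8-letter CLEAR core TCACGTGA, which contains it. Human stretches come from the RefSeq promoter table on GRCh38.p14, and mouse stretches were read from GRCm39 before the start of the GENCODE vM39 canonical transcript.
NEU1, chr6:31862915-31862974, minus strand: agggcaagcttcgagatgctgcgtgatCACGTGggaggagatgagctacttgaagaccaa
CTSF, chr11:66568625-66568684, minus strand: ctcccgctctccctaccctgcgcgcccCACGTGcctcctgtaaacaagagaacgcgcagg
LAMP1, chr13:113297184-113297238, plus strand: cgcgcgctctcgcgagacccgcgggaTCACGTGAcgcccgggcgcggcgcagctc
MCOLN1, chr19:7522556-7522623, plus strand: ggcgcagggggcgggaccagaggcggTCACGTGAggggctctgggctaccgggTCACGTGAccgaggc
ATP6V0D1, chr16:67481184-67481243, minus strand: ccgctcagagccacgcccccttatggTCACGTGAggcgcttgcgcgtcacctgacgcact
Mouse Gaa, chr11:119158622-119158681, plus strand: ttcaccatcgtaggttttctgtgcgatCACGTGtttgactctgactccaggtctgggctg
Mouse Glb1, chr9:114230071-114230130, plus strand: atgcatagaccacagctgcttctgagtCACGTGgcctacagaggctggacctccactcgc
Mouse Ctsd, chr7:141941777-141941836, minus strand: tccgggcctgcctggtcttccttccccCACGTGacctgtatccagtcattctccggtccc

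For GAA, CTSA, CTSD and CLCN7 the match lies inside the first exon of another annotated transcript of the same gene, and only the 30 bases around it are shown.
GAA, chr17:80101493-80101522, plus strand: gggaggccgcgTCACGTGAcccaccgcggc
GAA, chr17:80101538-80101567, plus strand: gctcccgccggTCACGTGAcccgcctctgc
CTSA, chr20:45891298-45891327, plus strand: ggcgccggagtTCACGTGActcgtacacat
CTSD, chr11:1763957-1763986, minus strand: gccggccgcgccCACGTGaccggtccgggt
CLCN7, chr16:1475058-1475087, minus strand: gccgtcgctcatCACGTGgccccgtcgcgc

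A window of 300 bases (250 before the start and 50 after it) was given for 29 of the 44 human members and was read for all 44 mouse members. No window was given for HEXA, MANBA, NAGLU, SGSH, CTSB, CTSS, PSAP, ASAH1, LAMP2, PIP4P1, ATP6V0E1, ATP6V1A, ATP6V1B2, ATP6V1C1 and ATP6V1H. On either strand, CACGTG was found in 9 of 29 human windows (31.0%) against 8.45% of 15812 protein-coding windows, and in 15 of 44 mouse windows (34.1%) against 7.95% of 21068. The 8-letter TCACGTGA was found in 5 human windows (17.2%, against 1.33% of all) and in 6 mouse windows (13.6%, against 1.12%). The related M-box TCATGTGA, which overlaps neither, was found in 2 human windows (6.90%, against 0.942%) and 3 mouse windows (6.82%, against 0.973%). By role, CACGTG was present in 3 of 5 human and 4 of 7 mouse windows of membrane proteins and in 0 of 4 and 0 of 6 of lipid-handling genes, so Lipa, among the members with the largest rises described below, had no match in its window. Mouse Neu1 had none either, and the 100 bases before its start are shown for comparison with human NEU1.
Mouse Neu1, chr17:35150065-35150164, plus strand: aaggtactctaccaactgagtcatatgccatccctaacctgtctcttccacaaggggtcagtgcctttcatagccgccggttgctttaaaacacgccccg

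Members with and without a match were found among those called higher, lower and not called. Of the 9 human members with CACGTG, 7 were called higher, 1 lower and 1 not called in MDA-MB-231, with a median log2 fold change of 0.58, against 11 higher, 3 lower and 6 not called of the 20 without it, with a median of 0.35. Of the 15 mouse members with it, 9 were called higher, 1 lower and 5 not called in 4T1 (median 0.39), against 20 higher, 3 lower, 5 not called and 1 untested of the 29 without it (median 0.52). For the longer TCACGTGA, 3 of 5 human members were called higher, 1 lower and 1 not called (median 0.28). Of 6 mouse members with it, 3 were called higher, 1 lower and 2 not called (median 0.25). Both medians were under those of members without CACGTG. These are descriptions of letters in a window and not of binding.

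**Figure D1:**
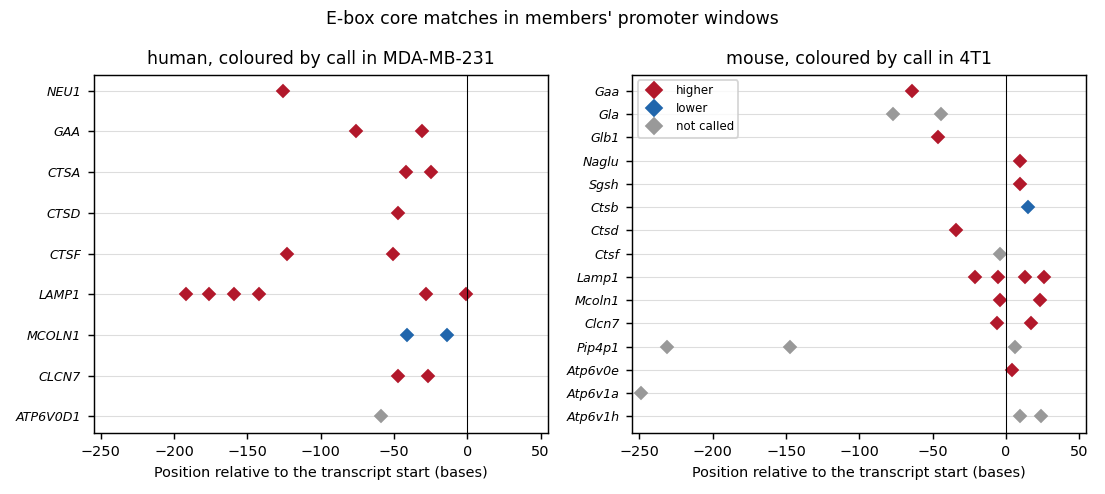
Positions of CACGTG matches in the promoter windows of members that hold at least 1, in bases from the transcript start at 0, for human (left) and mouse (right) genes. Red marks members called higher on ponatinib, blue lower and grey not called; LAMP1 holds a run of matches, and human MCOLN1 was called lower whereas mouse Mcoln1 was called higher.

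In both lines, most of the changed lysosome and V-ATPase genes rose on ponatinib. In MDA-MB-231, 27 of 44 members were called higher (61.4%) and 4 lower, where 27.2% of the 14610 genes tested were called higher and 26.8% lower (edgeR adjusted p under 0.05, 54.0% either way). In 4T1, 29 of the 43 tested members were called higher (67.4%) and 4 lower, where 29.5% of 13286 genes were called higher and 29.4% lower (59.0% either way). Because members were chosen with earlier results of these data known, these shares and those by role below are descriptions and not independent support. The members had a median log2 fold change of 0.42 (MDA-MB-231) and 0.41 (4T1), beside 0.02 and -0.0002 over all genes tested. Summed over all 44 members, the human line held 5349 to 5776 CPM on DMSO and 8219 to 9283 CPM on ponatinib, and the mouse line 6042 to 6448 and 8398 to 8451 CPM. Most of the rise of the human sum came from CTSD (344 to 482 and 1598 to 2338 CPM) and PSAP (864 to 886 and 1621 to 1666 CPM). In such bulk samples, a change in the make-up of the culture and a change in RNA per cell cannot be told apart.

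A log2 fold change of at least 1 was reached by 7 called members in the human line and 10 in 4T1, beside 10.7% and 9.57% of all genes tested, and no called fall reached that size in either line, beside 5.16% and 4.84%. The 3 ponatinib libraries lay wholly above the 3 DMSO libraries for 29 members in the human line and 33 in 4T1, as they did for 30.6% and 32.6% of all genes, and wholly below for 5 and 7, as for 29.8% and 30.8% (60.4% and 63.4% in either direction). Ctss, a cysteine protease of antigen-presenting cells, had no count in any 4T1 library, which allows up to 3 counts per library, or 0.153 to 0.170 CPM, and was not tested there.

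**Figure D2:**
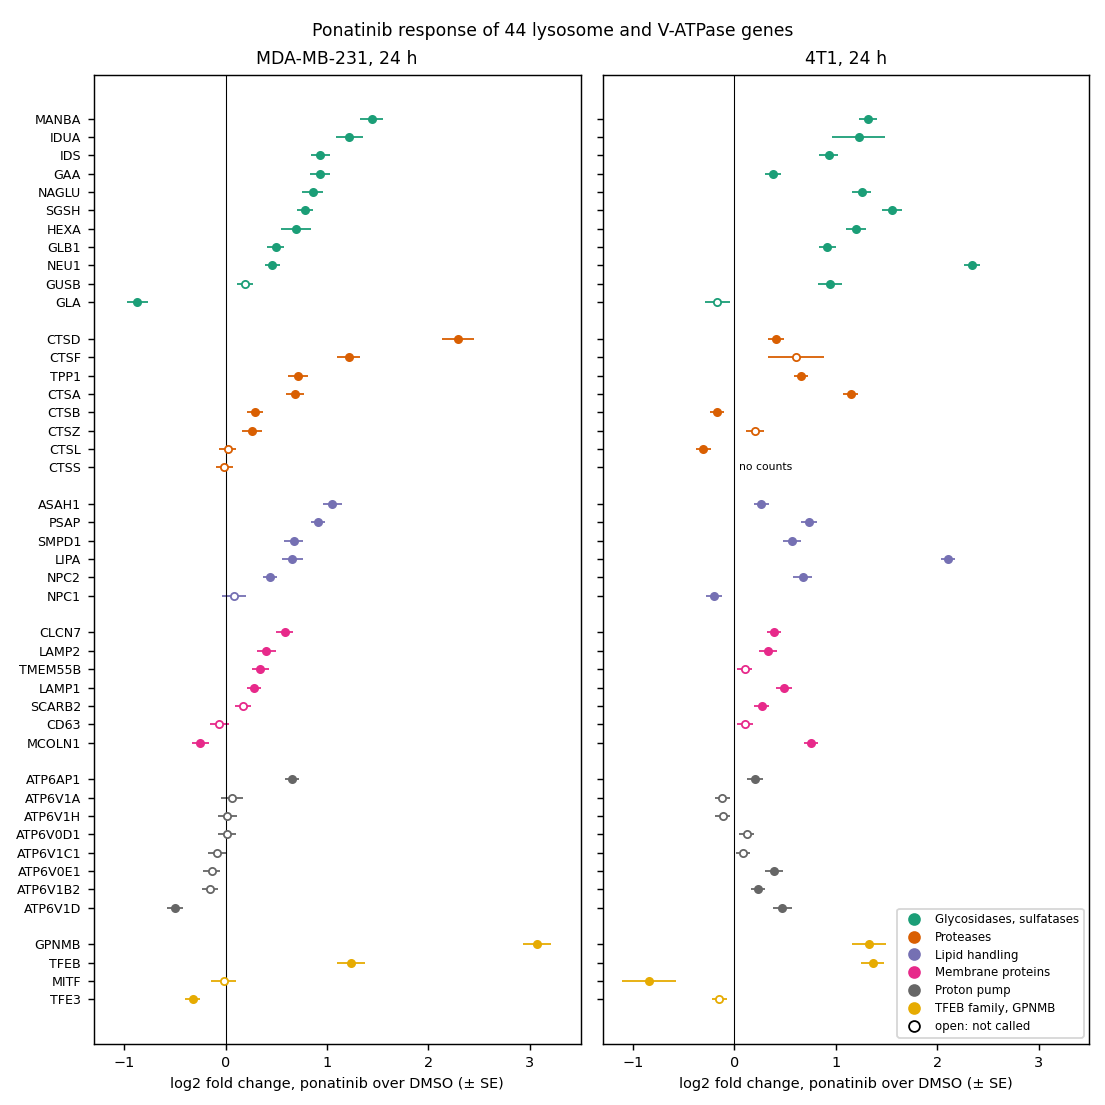
Log2 fold change (x axis, ponatinib over DMSO, bars ± SE of the edgeR fit, 3 libraries per group) of each member for MDA-MB-231 at left and 4T1 at right, grouped and coloured by role, with open circles for members not called. Glycosidases, sulfatases and lipid-handling genes lie mostly right of 0, and pump subunits lie close to it.

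Glycosidases and sulfatases were the role with the highest median in both lines. In 4T1, 10 of 11 were called higher and 0 lower, with a median log2 fold change of 1.20, and in the human line 9 were called higher and 1 lower, with a median of 0.78. Their summed level was 573 to 614 CPM on DMSO and 1199 to 1235 CPM on ponatinib in 4T1, and 512 to 559 and 776 to 801 CPM in the human line. Gla was the only one not called in 4T1, and GUSB the only one not called in the human line.

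Neu1 is the lysosomal sialidase, which removes terminal sialic acids and works in a complex with the products of Ctsa and Glb1. It lies at chr17:35150165-35156292 on the plus strand of GRCm39. Its rise in 4T1 was known when the list was drawn up. Its rank, p-values and line difference given here are therefore descriptions and not independent support. Neu1 was 77.5, 78.8 and 82.4 CPM in the 4T1 DMSO libraries and 383, 411 and 417 CPM in the ponatinib libraries. The lowest ponatinib library was over 4 times the highest DMSO library. The log2 fold change was 2.34 ± 0.08 (SE, n = 3 per group, edgeR adjusted p = 1.57e-11), the largest of the 43 tested members in this line. Human NEU1, at chr6:31857659-31862905 on the minus strand of hg38, was 126, 113 and 111 CPM on DMSO and 162, 160.1 and 159.6 CPM on ponatinib in the human line. All ponatinib libraries were higher there too, but the log2 fold change was 0.46 ± 0.08 (edgeR adjusted p = 0.000344). The rise was larger in 4T1 by 1.88 ± 0.11 on the log2 scale (edgeR line by treatment interaction, adjusted p = 1.02e-10).

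The partners of the sialidase moved the same way. Ctsa, the protective protein that stabilises it and a serine carboxypeptidase, was 178, 153 and 170.2 CPM on DMSO and 366, 373 and 370.5 CPM on ponatinib in 4T1, and CTSA was 261, 225 and 229.7 and 420.4, 368 and 361 CPM in the human line. The groups did not overlap in either line, with log2 fold changes of 1.15 ± 0.08 (edgeR adjusted p = 1.42e-08) and 0.68 ± 0.09 (adjusted p = 5.23e-05). Beta-galactosidase had log2 fold changes of 0.92 (Glb1, 4T1) and 0.50 (GLB1, MDA-MB-231), both called. For CTSA and GLB1 too the rise was larger in 4T1, by 0.46 (adjusted p = 0.00383) and 0.42 (adjusted p = 0.00813).

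SGSH, NAGLU, IDUA and IDS, 4 of the members that act on heparan sulfate, were each called higher in both lines, a grouping made here and not a list that was tested. GUSB, another such member, was called higher in 4T1 only (log2 fold change 0.94, against 0.19 in the human line). HGSNAT, of the same pathway but not a member, was called higher in the human line (log2 fold change 0.53), whereas Hgsnat was called lower in 4T1 (log2 fold change -1.68). Sgsh, a sulfamidase, was 13.9, 13.0 and 13.8 CPM on DMSO and 42.3, 38.1 and 39.2 CPM on ponatinib in 4T1, a log2 fold change of 1.55 ± 0.10 (edgeR adjusted p = 1.02e-08). In MDA-MB-231 SGSH was 52.4, 48.2 and 47.6 and 86.9, 82.3 and 85.5 CPM, a log2 fold change of 0.78, and the difference between the lines was 0.77 (adjusted p = 3.56e-05). NAGLU, an acetylglucosaminidase, was 32.3, 30.8 and 28.0 and 62.2, 51.3 and 51.6 CPM in the human line, and Naglu 38.2, 30.8 and 32.4 and 80.8, 77.9 and 83.3 CPM in 4T1. None of these groups overlapped, and the log2 fold changes of NAGLU were 0.86 and 1.26. IDUA, an iduronidase, was 17.1, 13.1 and 14.8 and 40.9, 31.4 and 32.5 CPM in the human line, and Idua 1.30, 1.44 and 0.929 and 2.50, 3.30 and 2.82 CPM in 4T1. It was called higher in both lines, by 1.22 ± 0.13 and 1.23 ± 0.26, although Idua was near 1 CPM on DMSO in 4T1. IDS, the sulfatase that acts before it, had log2 fold changes of 0.93 and 0.93, both called.

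MANBA, the lysosomal beta-mannosidase, was 8.21, 9.05 and 9.17 CPM on DMSO and 25.9, 22.1 and 23.7 CPM on ponatinib in the human line, and Manba 25.6, 29.6 and 30.9 and 71.8, 70.3 and 72.4 CPM in 4T1. Ponatinib libraries were higher without overlap in both, by 1.44 ± 0.12 (edgeR adjusted p = 1.37e-06) and 1.32 ± 0.09 (adjusted p = 1.56e-08), with no called difference between the lines (-0.12 ± 0.14, adjusted p = 0.539). HEXA, the alpha subunit of beta-hexosaminidase A, was 5.36, 5.17 and 5.34 and 9.64, 7.89 and 8.26 CPM in the human line, and Hexa 20.1, 16.7 and 19.3 and 42.1, 44.6 and 41.8 CPM in 4T1. The log2 fold changes were 0.70 and 1.20, both called. In the human annotation another gene overlaps HEXA on the same strand, and HEXA was the lowest member per kilobase of transcript in the human line (1.11 CPM per kb on DMSO), so its level there is uncertain.

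GLA, alpha-galactosidase A, was the only member of this role called lower. It was 51.9, 48.2 and 46.8 CPM on DMSO and 28.9, 28.1 and 23.5 CPM on ponatinib in the human line, all ponatinib libraries lower, a log2 fold change of -0.87 ± 0.10 (edgeR adjusted p = 2.38e-05). In 4T1 Gla had a log2 fold change of -0.17 that missed the threshold (adjusted p = 0.247), and it passed without DMSO replicate 1 (-0.31, adjusted p = 0.0158). Its mouse window held 2 copies of TCACGTGA. GAA, the acid alpha-glucosidase that degrades glycogen, rose by 0.93 in the human line and by 0.38 in 4T1, a larger rise in the human line by 0.55 (the 4T1 minus MDA-MB-231 difference was -0.55, adjusted p = 0.00198). GUSB, beta-glucuronidase, had log2 fold changes of 0.19 in the human line (adjusted p = 0.0502, or 0.00232 with the replicate number as a block) and 0.94 in 4T1. Human GUSB was also called with scaling to total counts (adjusted p = 0.00814) and with a minimum of 10 counts (0.0264).

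**Figure D3:**
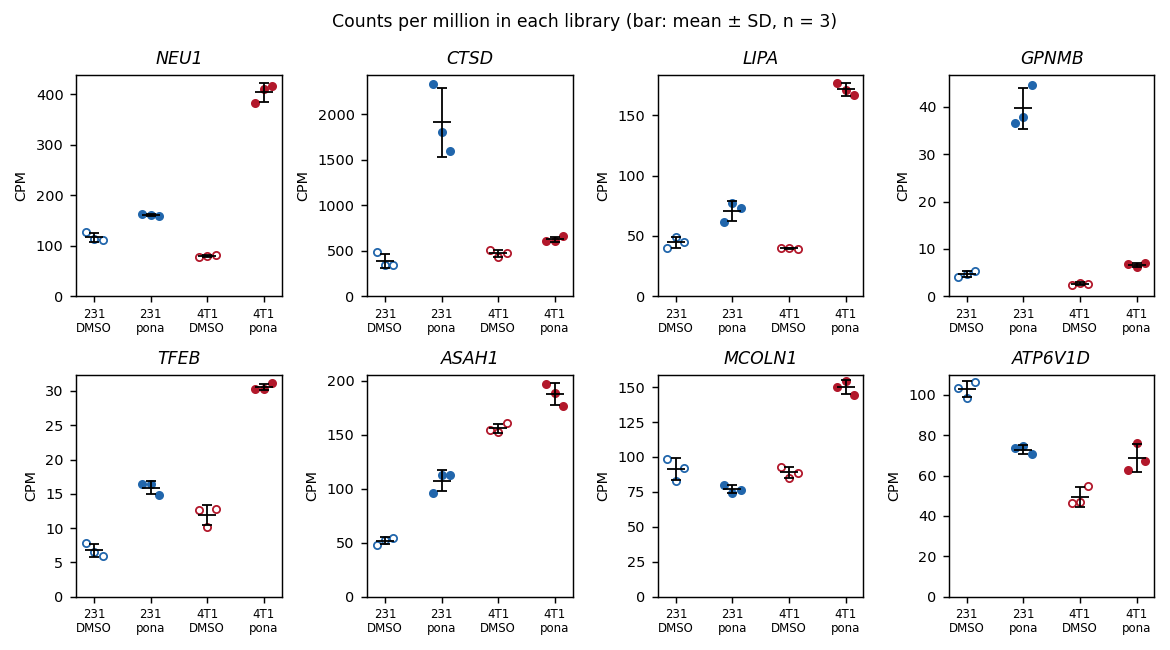
CPM (y axis, from 0) of 8 members in each library of MDA-MB-231 (blue) and 4T1 (red) on DMSO (open) and ponatinib (filled), with mean ± SD of 3 libraries. NEU1 and LIPA rose most in 4T1, CTSD and GPNMB most in MDA-MB-231, TFEB in both, and MCOLN1 and ATP6V1D were called lower in MDA-MB-231 and higher in 4T1.

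Of the proteases, 6 of 8 were called higher and 0 lower in the human line (median log2 fold change 0.49), and 3 of 7 tested were called higher and 2 lower in 4T1 (median 0.41). CTSD, the main lysosomal aspartic protease, at chr11:1752752-1764573 on the minus strand of hg38, was 482, 344 and 345 CPM in the MDA-MB-231 DMSO libraries and 2338, 1808 and 1598 CPM in the ponatinib libraries. Every ponatinib library was over 3 times every DMSO library. The log2 fold change was 2.29 ± 0.16 (edgeR adjusted p = 4.51e-07). Per kilobase of transcript, CTSD went from the 4th highest member on DMSO (190 CPM per kb) to 932 CPM per kb on ponatinib, above PSAP (596) and CD63 (593). In 4T1 Ctsd was 509, 434 and 475 and 610.2, 611 and 659 CPM, a called log2 fold change of 0.41, and the rise was larger in the human line (4T1 minus MDA-MB-231 -1.89 ± 0.19, edgeR interaction adjusted p = 1.79e-07). Unnamed annotated genes overlap human CTSD on the same strand, and how reads shared with them were counted was not given in the sources used here.

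CTSF, a cysteine protease, was 40.4, 32.1 and 38.8 CPM on DMSO and 96.7, 82.3 and 79.0 CPM on ponatinib in the human line, a log2 fold change of 1.21 ± 0.11 (edgeR adjusted p = 3.22e-06). Ctsf was barely detected in 4T1, at 1.30, 1.61 and 1.75 and 1.94, 2.01 and 3.20 CPM, and its log2 fold change of 0.61 missed the threshold (adjusted p = 0.0717). The difference between the lines was -0.61 (adjusted p = 0.0827, or 0.0279 with the replicate block). It was also called with DESeq2 (-0.65, adjusted p = 0.0482) and without 4T1 ponatinib replicate 3 (-0.87, 0.0147). TPP1, a tripeptidyl peptidase, rose by 0.71 in the human line and from 136, 135 and 144 to 218, 219 and 216 CPM in 4T1 (log2 fold change 0.65, adjusted p = 1.61e-06). The line difference for TPP1 was -0.06 ± 0.11 and was not called.

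CTSB and CTSL, cysteine cathepsins, gave smaller or opposite values. CTSB was 219, 187 and 198 CPM on DMSO and 251, 249 and 239 CPM on ponatinib in the human line, where it was called higher, with a log2 fold change of 0.29 (edgeR adjusted p = 0.00752). Ctsb was 553, 551 and 542 and 475, 495 and 489 CPM in 4T1, where it was called lower, with a log2 fold change of -0.17 (adjusted p = 0.045). The groups overlapped in neither line and the difference between the lines was called (-0.47, adjusted p = 0.00121), but the human call was lost without DMSO replicate 2 (adjusted p = 0.0550) and the mouse call without any 1 of the 6 libraries (0.0504 to 0.115), with scaling to total counts (0.492), with no filter on low genes (0.0888) and with a minimum of 10 counts (0.0650). Ctsl was called lower in 4T1 (log2 fold change -0.31, adjusted p = 0.00235), whereas CTSL had a log2 fold change of 0.02 in the human line. CTSS, at 85.2, 91.8 and 89.8 CPM on DMSO and 82.5, 95.04 and 87.2 CPM on ponatinib in the human line, was not called. CTSZ was called higher in the human line (0.26, adjusted p = 0.0454), a call lost without DMSO replicate 2 or 3 or ponatinib replicate 1 or 2 (0.0734 to 0.204), with DESeq2 (0.0684) and with its size factors (0.0658), and Ctsz had 0.20 in 4T1 (adjusted p = 0.0569, or 0.00664 with the replicate block). Ctsz was also called with scaling to total counts (0.00402), no filter (0.0286) and a minimum of 10 counts (0.0386). So it was without DMSO replicate 1 (0.00495) or ponatinib replicate 2 (0.0359).

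Of the 6 lipid-handling genes, 5 were called higher in each line, with medians of 0.66 in the human line and 0.62 in 4T1. Lipa, the acid lipase that frees cholesterol and fatty acids from lipoprotein lipids, lies at chr19:34469712-34522163 on the minus strand of GRCm39. It was 40.2, 40.0 and 39.3 CPM on DMSO and 177, 171 and 167 CPM on ponatinib in 4T1. These groups were far apart, with a log2 fold change of 2.10 ± 0.07 (edgeR adjusted p = 2.23e-11). LIPA was 40.3, 49.2 and 44.9 and 61.7, 77.3 and 73.2 CPM in the human line, also without overlap, a log2 fold change of 0.66 ± 0.11 (adjusted p = 0.000283). The rise was larger in 4T1 by 1.45 ± 0.13 (edgeR interaction adjusted p = 4.81e-08).

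ASAH1, acid ceramidase, had the larger rise in the human line. It was 48.2, 52.2 and 54.7 CPM on DMSO and 96.3, 113 and 113 CPM on ponatinib in the human line, a log2 fold change of 1.05 ± 0.09 (edgeR adjusted p = 2.25e-06). In 4T1 Asah1 was 155, 153 and 161 and 198, 189 and 177 CPM, a smaller called rise of 0.27, and the 4T1 minus MDA-MB-231 difference was -0.79 (adjusted p = 1.94e-05). PSAP, the precursor of the saposins that present lipids to their hydrolases, was 864, 886 and 869.8 and 1666, 1621 and 1626 CPM in the human line, and Psap 479, 429 and 418 and 762, 733 and 711 CPM in 4T1. The log2 fold changes of PSAP were 0.91 and 0.73, both called, with a line difference of -0.17 ± 0.11 that was not. DESeq2 did call that difference (-0.22, adjusted p = 0.0420). SMPD1, acid sphingomyelinase, rose by 0.67 and 0.57, and NPC2, the soluble cholesterol carrier, by 0.44 and 0.67. NPC1, the membrane transporter that takes cholesterol from it, had a log2 fold change of 0.08 in the human line, not called, and was called lower in 4T1 (log2 fold change -0.21, adjusted p = 0.0364), a call lost without any 1 library except ponatinib replicate 1 (0.0535 to 0.159) and with scaling to total counts (0.342). With the replicate block the line differences of NPC1 (-0.29, adjusted p = 0.00489) and NPC2 (0.24, adjusted p = 0.0371) were called. That of NPC1 was also called without MDA-MB-231 ponatinib replicate 1 (-0.40, adjusted p = 0.0226).

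Of the 7 membrane proteins, 4 were called higher and 1 lower in MDA-MB-231 (median log2 fold change 0.28), and 5 were called higher and 0 lower in 4T1 (median 0.33). Their summed level was 1232 to 1344 CPM on DMSO and 1338 to 1440 CPM on ponatinib in the human line, where the groups overlapped, and 1632 to 1688 and 2106 to 2140 CPM in 4T1. MCOLN1, the calcium channel TRPML1, was 98.6, 82.6 and 92.5 CPM on DMSO and 80.1, 74.3 and 76.1 CPM on ponatinib in the human line. The groups lay close but apart, with a called log2 fold change of -0.25 (adjusted p = 0.0272) that was lost with scaling to total counts (-0.15, adjusted p = 0.121) and without DMSO replicate 1 or 3 or ponatinib replicate 2 or 3 (0.0636 to 0.0998). Mcoln1 was 93.1, 85.0 and 88.6 and 150.3, 155 and 145 CPM in 4T1, where it was the largest riser of its role at 0.75 ± 0.07 (edgeR adjusted p = 5.73e-07). The difference between the lines was 1.00 ± 0.11 (edgeR interaction adjusted p = 7.68e-07).

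The abundant structural glycoprotein LAMP1 rose by 0.28 in the human line, and Lamp1 was 713, 623 and 682 CPM on DMSO and 969, 913 and 958 CPM on ponatinib in 4T1, a log2 fold change of 0.49 (edgeR adjusted p = 8e-05). LAMP2 was 50.2, 62.1 and 54.5 and 68.0, 74.8 and 77.4 CPM in the human line (log2 fold change 0.40, adjusted p = 0.00397) and rose by 0.33 in 4T1. CLCN7, the lysosomal chloride-proton exchanger, was 78.4, 73.8 and 80.7 and 111, 112 and 126 CPM in the human line (log2 fold change 0.58, adjusted p = 9.88e-05) and rose by 0.39 in 4T1. None of these groups overlapped. PIP4P1, a phosphoinositide phosphatase, was called in the human line (0.34) and not in 4T1 (0.10), and SCARB2, the receptor that carries glucocerebrosidase, was called in 4T1 (0.27) and not in the human line (0.17, adjusted p = 0.0798, or 0.00744 with the replicate block). Human SCARB2 was also called with scaling to total counts (adjusted p = 0.0275) and with a minimum of 10 counts (0.0434). CD63, a tetraspanin and the member with the highest level per kilobase in both DMSO groups (618 CPM per kb in the human line, 367 in 4T1), was called in neither line (-0.06 and 0.10). With the replicate block the line differences of LAMP1 (0.21, adjusted p = 0.0156), CLCN7 (-0.19, 0.0478) and PIP4P1 (-0.24, 0.0276) were called. That of PIP4P1 was also called with DESeq2 (-0.29, adjusted p = 0.0226) and with TMM scaling over the shared genes (-0.31, 0.0266).

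Proton pump subunits were mostly not called in the human line. Of 8, 1 was called higher and 1 lower there (median -0.04), and 4 were called higher and 0 lower in 4T1 (median 0.16). Their summed level was 832 to 875 CPM on DMSO and 831 to 873 CPM on ponatinib in the human line, and 913 to 943 and 1013 to 1029 CPM in 4T1, so the groups overlapped in the human line and not in the mouse line. ATP6V1D, a subunit of the central rotor, was 104, 98.5 and 106 CPM on DMSO and 73.6, 74.5 and 70.5 CPM on ponatinib in the human line, a log2 fold change of -0.50 ± 0.07 (edgeR adjusted p = 0.000158). Atp6v1d was 46.3, 46.9 and 55.1 and 62.7, 76.2 and 67.1 CPM in 4T1, a log2 fold change of 0.47 ± 0.10 (adjusted p = 0.000654). Ponatinib libraries were thus all lower in the human line and all higher in the mouse line, and the difference was 0.97 ± 0.13 (edgeR interaction adjusted p = 4.64e-06). Genes on the opposite strand overlap it in both species.

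ATP6AP1, an accessory subunit needed for pump assembly, was 125, 117 and 116 CPM on DMSO and 191, 185 and 188 CPM on ponatinib in the human line, a log2 fold change of 0.65 ± 0.07 (edgeR adjusted p = 1.37e-05) and the only called rise among these 8 subunits in that line. In 4T1 it rose by 0.20 (adjusted p = 0.0395), a call lost without any 1 library except DMSO replicate 1 (0.0670 to 0.167). Atp6v0e, a small membrane-sector subunit, was 68.9, 64.8 and 74.5 and 82.2, 89.8 and 101 CPM in 4T1, a log2 fold change of 0.39 (adjusted p = 0.00163), and Atp6v1b2, a catalytic-head subunit, rose by 0.23. In MDA-MB-231 the values were -0.14 for ATP6V0E1 and -0.16 for ATP6V1B2, and with the replicate block both were called lower (adjusted p = 0.00351 and 0.00622), as was ATP6V1B2 without DMSO replicate 1 (-0.22, adjusted p = 0.0275). ATP6V0D1, ATP6V1A, ATP6V1C1 and ATP6V1H were called in neither line, with log2 fold changes between -0.09 and 0.06 in the human line and between -0.12 and 0.12 in 4T1.

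Of the factors that bind the CLEAR element, TFEB rose in both lines, and neither TFE3 nor MITF rose in either. TFEB, at chr6:41683978-41736259 on the minus strand of hg38, was 7.75, 6.53 and 5.97 CPM on DMSO and 16.4, 16.5 and 14.8 CPM on ponatinib in the human line, and Tfeb 12.7, 10.2 and 12.7 and 30.3, 30.4 and 31.1 CPM in 4T1. The ponatinib libraries lay wholly above the DMSO libraries in both lines, with log2 fold changes of 1.23 ± 0.14 (edgeR adjusted p = 1.5e-05) and 1.36 ± 0.11 (adjusted p = 1.5e-07). The difference between the lines was 0.13, with a 95% interval from -0.22 to 0.48. TFE3 was 177, 161 and 177 and 134, 132 and 145 CPM in the human line, where it was called lower (log2 fold change -0.32, adjusted p = 0.00369), and Tfe3 96.4, 88.0 and 88.1 and 81.1, 79.0 and 85.8 CPM in 4T1, where it was not called (-0.15, adjusted p = 0.103). Even on ponatinib, the level of TFE3 stayed above that of TFEB per kilobase of transcript in both lines (41.7 against 6.81 CPM per kb in the human line, 24.0 against 13.0 in 4T1).

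MITF, best known from melanocytes, was 20.3, 22.7 and 25.9 CPM on DMSO and 19.7, 22.6 and 25.5 CPM on ponatinib in the human line, overlapping groups with a log2 fold change of -0.02. Mitf was 2.44, 4.22 and 3.39 and 1.38, 2.27 and 1.95 CPM in 4T1 and was called lower, with a log2 fold change of -0.84 ± 0.27 (adjusted p = 0.014), a call lost without DMSO replicate 2 or ponatinib replicate 1 (adjusted p = 0.0831 and 0.0590). GPNMB, a transmembrane glycoprotein that these factors are known to induce, lies at chr7:23235967-23275108 on the plus strand of hg38. It was 4.11, 4.78 and 5.28 CPM on DMSO and 36.5, 37.9 and 44.7 CPM on ponatinib in the human line, a log2 fold change of 3.07 ± 0.13 (edgeR adjusted p = 1.51e-08), the largest of the 44 members in that line. Gpnmb was 2.38, 2.89 and 2.68 and 6.79, 6.19 and 6.99 CPM in 4T1, also without overlap, a log2 fold change of 1.33 ± 0.17 (adjusted p = 1.3e-05). The 4T1 minus MDA-MB-231 difference was -1.74 ± 0.22 (edgeR interaction adjusted p = 2.54e-06). Among 4 melanocyte markers, TYR was at 0 in both lines and the summed level was 0.754 to 1.46 CPM on DMSO and 2.08 to 2.80 CPM on ponatinib in the human line, and 0.167 to 0.453 and 0.921 to 1.33 CPM in 4T1, and its part in the rise of GPNMB was not tested.

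Between the lines, 23 members were called higher in both, where 27.2% of all genes tested were called higher in the human line and 29.5% in 4T1. The share of all genes called higher in both lines is not given here, so this count is a description. MCOLN1 and ATP6V1D were called lower in the human line and higher in 4T1, and CTSB the reverse, while CD63, ATP6V0D1, ATP6V1A, ATP6V1C1 and ATP6V1H were called in neither. The interaction test called 21 members, 13 with the response above that of MDA-MB-231 in 4T1 and 8 below it, where 23.1% and 18.9% of the 12490 genes tested were called, 42.0% in all. The share of members called, in all and below, was thus near that of all genes. By role, 7 of 11 glycosidases and sulfatases had the larger log2 fold change in 4T1 and 1 (GAA) in the human line, whereas among proteases it was 1 (CTSA) and 3 (CTSB, CTSD and CTSL). Of the 21, 12 were called higher in both lines and so differed in size rather than direction. The call for NAGLU was lost without any 1 of 8 libraries (all but DMSO replicate 3 and ponatinib replicate 1 of MDA-MB-231 and DMSO replicate 1 and ponatinib replicate 2 of 4T1), with adjusted p from 0.0504 to 0.0847, and with DESeq2 (0.0653) or TMM scaling over the shared genes (0.0750). That for CTSL was lost without MDA-MB-231 DMSO replicate 3 or ponatinib replicate 2 or 4T1 DMSO replicate 3 or ponatinib replicate 1 (0.0547 to 0.0866), and with no filter (0.0505). The call for HEXA was lost without MDA-MB-231 ponatinib replicate 2 or 3 or 4T1 DMSO replicate 2 or ponatinib replicate 2 (0.0516 to 0.0651) and with TMM scaling over the shared genes (0.0535), and that for MITF without MDA-MB-231 ponatinib replicate 3 or 4T1 DMSO replicate 2 or ponatinib replicate 1 (0.0515 to 0.102).

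**Figure D4:**
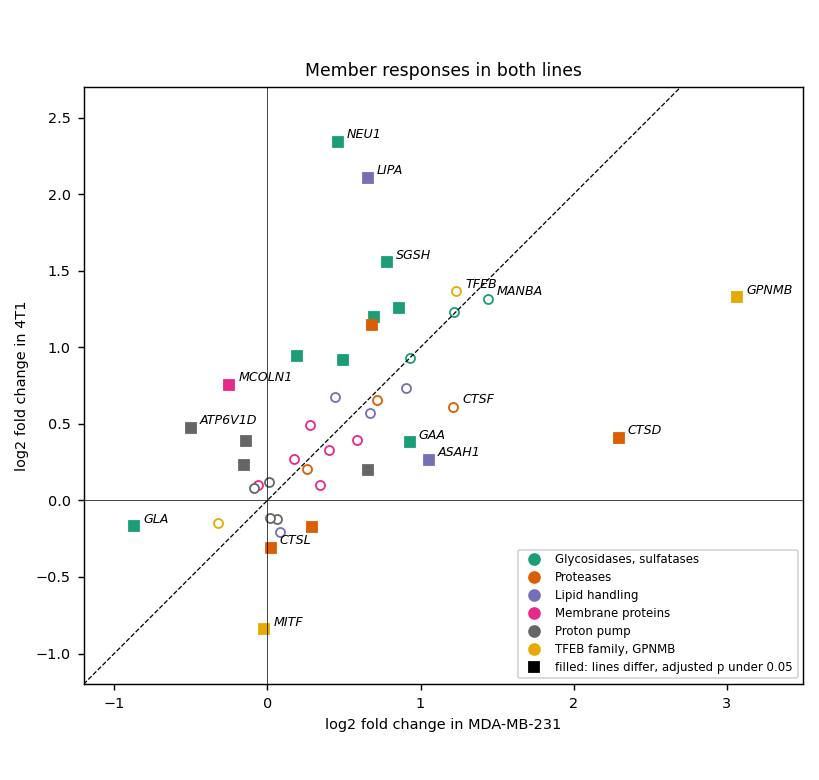
Log2 fold change on ponatinib in 4T1 (y axis) against MDA-MB-231 (x axis) for the 43 members tested in both lines, coloured by role, with the dashed line at equal response. Filled squares are the 21 members with a called difference; NEU1 and LIPA lie far above the line, CTSD and GPNMB far below it.

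A further 97 genes that were not members were read from the same fits. By list they are 29 other hydrolases, 20 membrane proteins, 17 pump genes, 12 genes of enzyme sorting and 19 of mTORC1 control. Not all of them encode lysosomal proteins. Of the 97 together, 39 of the 89 tested in the human line were called higher and 16 lower (median log2 fold change 0.23), and 57 of the 86 tested in 4T1 were called higher and 10 lower (median 0.42). Over all genes tested, 27.2% were called higher and 26.8% lower in the human line, and 29.5% and 29.4% in 4T1, and the lists that follow are read against these shares. Among 29 other hydrolases, 17 of 28 tested were called higher and 4 lower in the human line and 22 of 27 higher and 2 lower in 4T1. CTSO, a cysteine protease, had a log2 fold change of 1.91 in the human line, DNASE2, the acid nuclease, 1.86, ARSA, arylsulfatase A, 1.19, and PLD3, a 5′ exonuclease, 0.83. In 4T1 the ganglioside activator Gm2a rose from 2.66, 3.05 and 3.11 to 15.4, 13.7 and 11.9 CPM, a log2 fold change of 2.21 (edgeR adjusted p = 2.88e-08). Man2b1, alpha-mannosidase, rose by 1.55 and Siae, a sialic acid esterase, by 1.54. Hgsnat, the membrane acetyltransferase of heparan sulfate degradation, was called lower, at 108, 126 and 120.0 CPM on DMSO and 34.5, 35.4 and 40.7 CPM on ponatinib in 4T1. Its log2 fold change was -1.68 ± 0.09 (adjusted p = 1.69e-09) while Sgsh and Naglu, which act in the same pathway, rose.

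Among 17 other pump genes, 2 of 13 tested were called higher and 4 lower in the human line, and 6 of 11 higher and 0 lower in 4T1. With the members, 3 of 21 pump genes were called higher and 5 lower in the human line, and 10 of 19 higher and 0 lower in 4T1. ATP6V0B, a proton-binding ring subunit, was 250.2, 223 and 214 CPM on DMSO and 175, 161 and 148 CPM on ponatinib in the human line (log2 fold change -0.50, edgeR adjusted p = 0.000509). Of the a-subunit isoforms there, ATP6V0A4 had -0.90 and ATP6V0A2 -0.48, whereas TCIRG1, the isoform known from osteoclasts, rose by 0.44. In 4T1 Tcirg1 was 60.7, 51.0 and 54.5 and 109.5, 107 and 113 CPM, a log2 fold change of 0.99 (adjusted p = 1.37e-07). Atp6v1g2 (1.43) and Atp6v0e2 (1.43) rose from levels under 3 CPM, and Atp6v1e1 by 0.32. ATP6V0C had 20 counts in the 3 DMSO and 25 in the 3 ponatinib libraries of MDA-MB-231 and was not tested there.

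Among 20 other membrane proteins, 7 of 18 tested were called higher and 5 lower (27.8%, near the share over all genes) in the human line, and 12 of 19 higher and 2 lower in 4T1. LITAF, a regulator of endosomal sorting, was 50.9, 52.9 and 49.8 CPM on DMSO and 102, 104 and 102 CPM on ponatinib in the human line (log2 fold change 1.00, edgeR adjusted p = 7.67e-07). TMEM192 had 0.99 and SIDT2, a nucleic acid transporter, 0.81. LAPTM5, a membrane protein of blood cells, was called lower in the human line (log2 fold change -0.67), and rose in 4T1 from 11 counts in 3 libraries to 52 (log2 fold change 2.12). In 4T1, Cln3 (1.12) and the cystine exporter Ctns (0.97) rose.

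**Figure D5:**
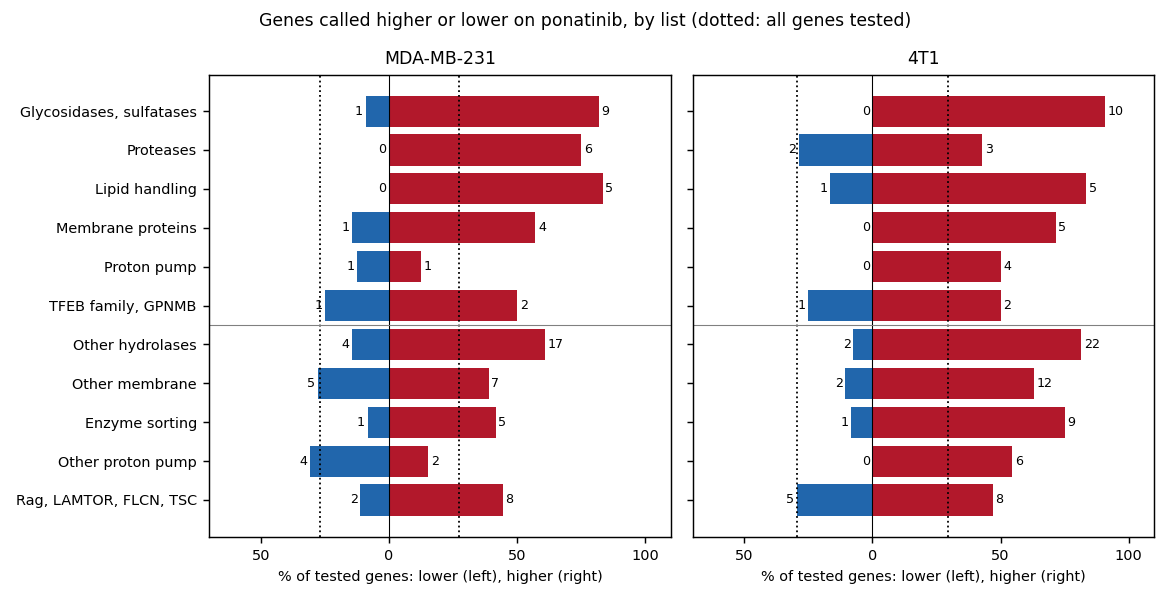
Share of tested genes called higher (red, right) and lower (blue, left) on ponatinib by list, with the number called beside each bar, members above the grey line and the other lists below it, for MDA-MB-231 and 4T1. Dotted lines mark the shares over all genes tested, and both pump lists lie under the higher line in MDA-MB-231 and above it in 4T1.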

How the data were processed

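RNA-seq of 12 libraries (3 each of MDA-MB-231 and 4T1 on DMSO or ponatinib) was read from deposited tables of raw counts per gene, which the authors made by trimming reads, aligning them with HISAT2 to hg38 or GRCm39 and counting with HTSeq. Tool versions, the annotation release and the strand setting were not given in the sources used here. The library kit was NEBNext Ultra. Total counts per library ran from 15012884 to 17301760 for MDA-MB-231 and from 17800675 to 18951493 for 4T1, and no 2 libraries of a group agreed within counting noise (2.95 to 16.5 chi-square per gene).

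Symbols were attached through GENCODE v44 (81.95% of human identifiers, 99.34% of counts) and vM39 (91.07% and 99.8%). Each line was fitted on its own across all genes with edgeR 4.0.16 in R 4.3.3 (filterByExpr, TMM scaling, quasi-likelihood test, Benjamini-Hochberg adjustment over all genes tested), and a call is an adjusted p under 0.05. The difference between the lines was the line by treatment interaction over 12490 genes that carried one symbol in both species, with the library sizes of each line's fit. CPM values use the TMM-scaled library size, and CPM per kb divides by the length of the canonical transcript. Each fit was first tested on simulated data in which 200 genes changed. At a true log2 fold change of 1, 91.8% of changed genes were recovered in the human line and 92.8% in the mouse line. At 1.5 these shares were 100% and 99.0%. For the difference between the lines only 74% were recovered at 1 and 71% at 1.5, so a difference not called may have been missed.

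Replicate numbers are shared between treatments in the labels. Deviations of same-numbered libraries correlated at 0.345, 0.111 and 0.133 in MDA-MB-231 and at 0.213, 0.119 and 0.115 in 4T1, all above 0.1, the level set for taking numbers as pairs. Replicate 2 of MDA-MB-231 and replicate 3 of 4T1 correlated slightly more with another number (0.163 and 0.119). Although that level was met, calls are from the fits without a block and so leave this possible pairing out. The fit with the number as a block is given where it changes a call. Other alternatives were DESeq2 1.42.0, its size factors, total-count scaling, no filter on low genes, a minimum of 10 counts per library, and leaving out each library.

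The members and lists were chosen with earlier results of these data known. Values per library are given for NEU1, TFEB, TFE3, MITF, GPNMB, members called with a log2 fold change of at least 1 in size in either line, the 2 largest called members of each role and line, members called in opposite directions, and up to 4 genes of each other list. CTSS, which the rule did not name, was added after its values were seen. A gene that this rule named among the other membrane proteins is not reported here.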

Additional observations from a re-analysis of the deposited data

Results flagged for a closer look

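The response to ponatinib differed between the lines for 21 members (edgeR line by treatment interaction, adjusted p under 0.05), a share near the 42.0% of 12490 genes called. Each value here is the log2 fold change in 4T1 minus that in MDA-MB-231. Among glycosidases and sulfatases it was 1.88 for NEU1, 0.77 for SGSH, 0.75 for GUSB, 0.70 for GLA, 0.50 for HEXA, 0.42 for GLB1, 0.40 for NAGLU and -0.55 for GAA. Among proteases it was 0.46 for CTSA, -0.33 for CTSL, -0.47 for CTSB and -1.89 for CTSD, and among lipid-handling genes 1.45 for LIPA and -0.79 for ASAH1. MCOLN1 gave 1.00. The pump subunits gave 0.97 for ATP6V1D, 0.53 for ATP6V0E1, 0.39 for ATP6V1B2 and -0.45 for ATP6AP1. MITF gave -0.82 and GPNMB -1.74. The lines also differ in species and in basal level, and the part of either in these differences was not tested.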

How the results depend on the processing

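Counts of members called higher ranged from 25 to 29 in the human line and from 28 to 35 in the mouse line over the alternatives, and no member's log2 fold change reversed sign past the threshold. The 4 members called lower in the mouse line became 2 with scaling to total counts, which moved the median of all genes to 0.11 in the human line and 0.12 in the mouse line and ended the calls of Ctsb (-0.06), Npc1 (-0.09) and human MCOLN1 (-0.15), and 1 to 3 when single libraries were left out. Leaving out 1 library gave 25 to 27 higher and 3 to 4 lower in the human line, 28 to 30 higher in the mouse line, and 11 to 13 above and 6 to 9 below for the difference between the lines. With the replicate number as a block, 29 members were higher and 6 lower in the human line, 30 and 4 in the mouse line, and the difference was called for 15 and 12, and this block changed no call beyond those named with it. Shares of all genes called under these alternatives are not given here, so whether the member counts moved with those of all genes was not tested. Of the members called, 28 of 31 in the human line, 29 of 33 in the mouse line and 17 of 21 for the difference were called in every setting. With 3 libraries per group and BCV near 0.099 and 0.0869, fitted SEs were about 0.07 to 0.16 for well-counted members and up to 0.28 for those near 1 CPM.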

Other observations

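Of 12 genes that tag and sort lysosomal enzymes, 5 were called higher and 1 lower in MDA-MB-231, the human line, where 27.2% and 26.8% of all genes tested were. In 4T1, 9 of the 12 were called higher and 1 lower, where 29.5% and 29.4% of all genes were (edgeR adjusted p under 0.05). GNPTAB and GNPTG, which encode the transferase that starts the mannose 6-phosphate tag, had log2 fold changes of 0.53 and 0.68 in the human line. SORT1, a sorting receptor, was 92.1, 102 and 100.1 CPM on DMSO and 147, 151 and 150.5 CPM on ponatinib there, a log2 fold change of 0.61. In 4T1 Sumf1, which activates sulfatases, was 21.3, 21.8 and 20.2 CPM on DMSO and 42.6, 44.5 and 39.4 CPM on ponatinib, a log2 fold change of 1.00, and Gga2, a coat adaptor, had 1.09. Sort1 rose by 1.96 from under 1 CPM. CLN6 was called lower in the human line (-0.78) and Cln6 higher in 4T1 (1.75), and the difference is given as values only.

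Among 19 genes of the Rag, LAMTOR, FLCN and TSC complexes and related factors, which set mTORC1 activity at the lysosome, 8 of 18 tested were called higher and 2 lower in the human line, a share called in either direction near the 54.0% of all genes. In 4T1, 8 of 17 were called higher and 5 lower, the latter near the 29.4% of all genes. RRAGB, a Rag GTPase, was 7.62, 7.05 and 8.04 CPM on DMSO and 14.3, 16.9 and 14.8 CPM on ponatinib in the human line, a log2 fold change of 1.02, and Rragb had 1.30 in 4T1 from under 1 CPM. The suppressors TSC1 (0.71) and TSC2 (0.65) and the Rag regulator FLCN (0.60) rose in the human line. In 4T1 the scaffold subunits Lamtor4 (0.99) and Lamtor2 (0.66) rose, and Fnip2, a partner of folliculin, fell by 0.67 on the log2 scale.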
